A study of Mus musculus with 60 samples.

Results

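A set of 8 genes of the mouse mammary gland, Sprr2b, Gm15867, Slc30a2, Mast2, Kcnk12, 6430571L13Rik, Crym and Serpinb11, had been picked from earlier results on these animals because their signal after estrogen and progesterone together differed from the sum of the separate responses, or was seen only with both hormones. They are 8 of the 15964 genes that a probe set with a single gene symbol represents on the arrays, and 13 of 36701 probe sets measure them. Because their values in vehicle, estrogen, progesterone and combined treatment chose them, those values are given below as a description with no test. The comparisons with epithelium-free fat pads add arrays that did not enter the choice.

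The study used 20 ovariectomized mice, which were injected intraperitoneally every day for 4 days. The groups were 4 animals on 100 µl sesame oil (V), 4 on 2 µg 17-beta-estrogen (E), 4 on 1 mg progesterone (P) and 5 on both hormones (E+P). Another 3 animals on both hormones gave fat pads free of epithelium (E+P CFP). Groups follow the sample titles and the design text. The short descriptions name estrogen for E and progesterone alone for every other group, V included, so for V they conflict with the titles and for E+P and E+P CFP they name 1 of the 2 hormones. Every value of V and E+P and every interaction below rests on the titles. All groups share the ovariectomy, the labels give no strain or age, each number below is 1 animal, and lymph nodes had been taken out of the glands at collection.

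Estrogen and progesterone act through nuclear receptors that bind DNA and recruit coregulators. In the mammary gland both receptors sit in a share of the luminal epithelial cells, estrogen raises the amount of progesterone receptor, and the pair drives ductal side branching and alveolar growth. Each receptor can also act through other transcription factors, AP-1 among them. A response is additive on the log2 scale when the change with both hormones equals the sum of the 2 single changes, and the interaction is the amount by which it departs from that sum.

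AP-1 sites are therefore a simple feature to look for in the promoters. RefSeq (GRCm38.p6) gave the 250 bases before the start of 7 of the 8 genes. The motif TGACTCA, read on both strands, was found in the windows of Sprr2b and Gm15867, the pair whose signal was highest in every E+P gland, and in none of the windows of Slc30a2, Mast2, Kcnk12, 6430571L13Rik and Serpinb11. Of all 32851 windows of this length 4.46% hold it. With any middle base (TGANTCA, which includes the first motif), 6.75% of the windows match, and Serpinb11 matches too, at 2 places. The looser motif was searched first, and the stricter one was chosen after its matches were seen. The match begins at position -195 from the start in Sprr2b and at -51 in Gm15867, and capitals mark it in the first 2 sequences. 6430571L13Rik, whose signal moved the opposite way, is shown for contrast.
Sprr2b, chr3:92316455-92316704, plus strand: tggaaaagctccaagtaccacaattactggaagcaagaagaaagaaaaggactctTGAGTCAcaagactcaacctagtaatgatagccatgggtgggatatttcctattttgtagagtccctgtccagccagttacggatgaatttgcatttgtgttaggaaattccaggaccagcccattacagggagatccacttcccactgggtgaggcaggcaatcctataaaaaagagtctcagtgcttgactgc
Gm15867, chr1:192854678-192854927, plus strand: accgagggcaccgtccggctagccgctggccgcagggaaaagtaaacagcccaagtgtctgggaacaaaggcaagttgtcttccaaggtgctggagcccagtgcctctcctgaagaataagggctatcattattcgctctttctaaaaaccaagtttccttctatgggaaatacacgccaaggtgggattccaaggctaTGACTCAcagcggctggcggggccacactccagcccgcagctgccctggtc
6430571L13Rik, chr9:107340390-107340639, plus strand: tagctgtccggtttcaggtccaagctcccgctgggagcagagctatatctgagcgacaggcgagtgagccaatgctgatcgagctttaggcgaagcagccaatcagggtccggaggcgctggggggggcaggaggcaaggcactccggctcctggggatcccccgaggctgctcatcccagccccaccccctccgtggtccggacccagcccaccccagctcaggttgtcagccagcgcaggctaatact
The palindromic estrogen and progesterone response elements, the shorter progesterone receptor motif AGAACA and the STAT5 motif TTCNNNGAA, also read on both strands, matched none of the members' windows. Of all windows 0.0639%, 0.387%, 16.1% and 7.02% hold them. A match describes the letters only, and the arrays measured no binding.

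The values are MAS5 signal intensities on a linear scale, with every array at about the same mean. Of the 13 probe sets, 10 were bright enough in at least 3 of the 20 animals to be tested, and each gene keeps at least 1 of them. Values under the 25th percentile of an array type count as its floor, which is 13.6, 28.6 and 19.8 on types A, B and C. Crym passed through E and E+P animals only and Slc30a2 through V and E+P animals only, so a difference between those groups and the dim ones was bound to appear.

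**Figure D1:**
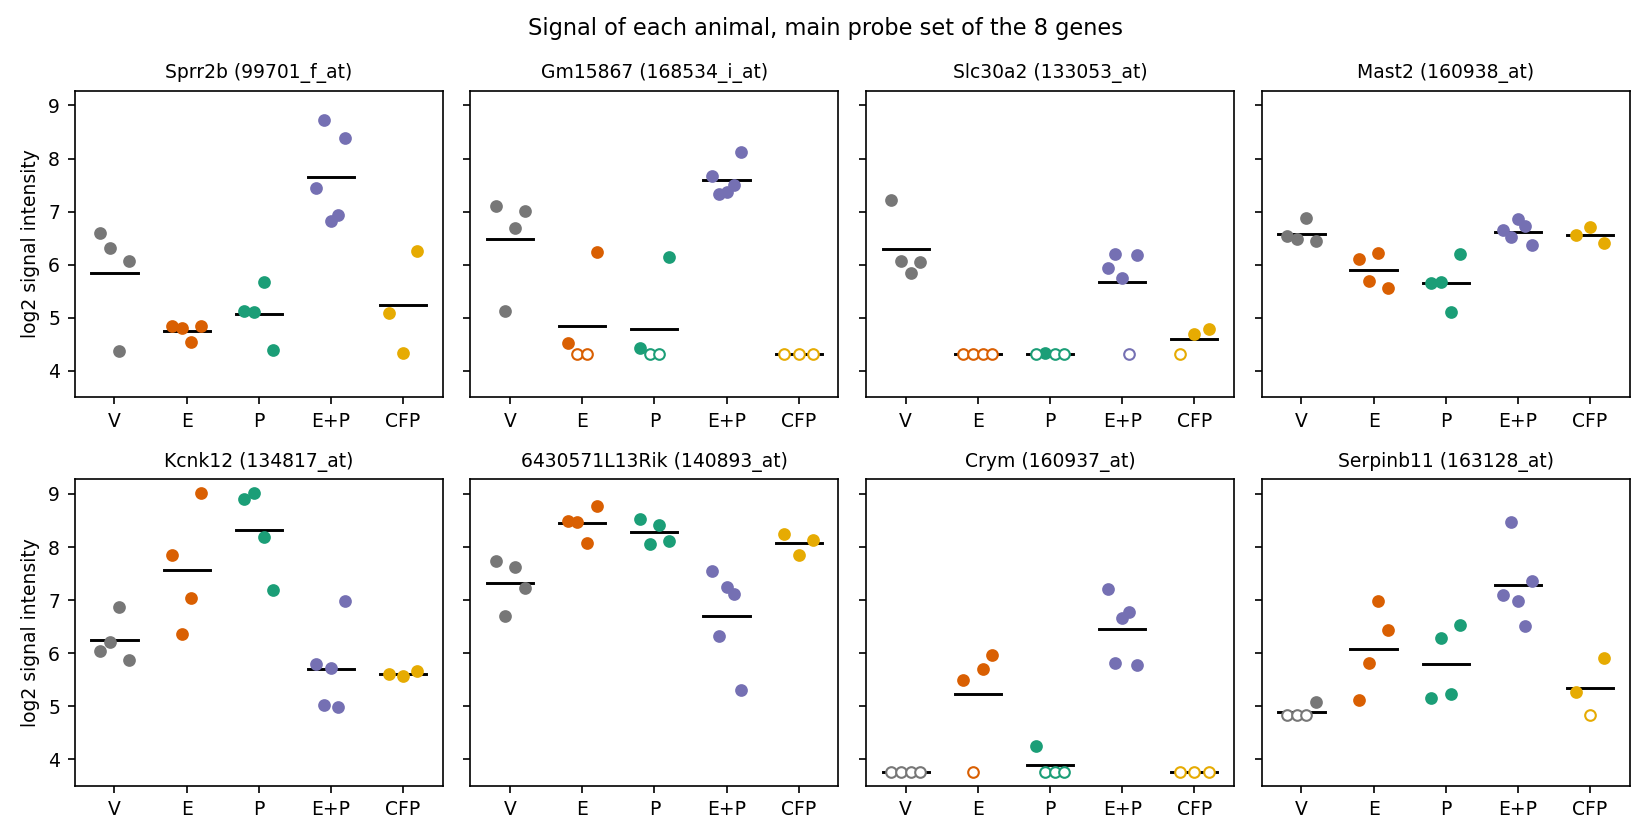
Log2 signal intensity of the main probe set of each of the 8 genes, 1 point per animal, with horizontal bars at group means (V, E and P n = 4, E+P n = 5, E+P CFP, marked CFP, n = 3) and open points at the floor. Sprr2b and Gm15867 lie above all V, E and P glands in every E+P gland, and Mast2 and 6430571L13Rik separate E and P from V and E+P.

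Sprr2b encodes a small proline-rich protein that is cross-linked into the cornified envelope of stratified epithelia. Its probe set 99701_f_at gave 96.6, 79.9, 20.7 and 67 in the V glands, 28.9, 27.8, 23.3 and 28.6 in the E glands and 35.1, 34.5, 51 and 20.9 in the P glands. The 5 E+P glands gave 173.5, 423.3, 113.5, 121.9 and 333.7. Every E+P gland was above every gland of V, E and P, the single-hormone groups overlapped each other, and 3 of the 4 V glands were above them. On the log2 scale Sprr2b differed from V by -1.08 with E and by -0.76 with P, which sum to -1.84, and by 1.82 with both. The interaction was 3.67 (SE 0.677), or 236.7 intensity units (SE 64.3) on the linear scale. The additive value on the linear scale was -3.52, and a signal cannot fall below 0. The suffix _f marks probes that can bind other members of the gene family, so the share of each Sprr2 gene in this signal is uncertain. Other probe sets of the family had interactions of -0.15 (Sprr2e), 0.02 (Sprr2g), 0.24 (Sprr2i) and -0.33 (Sprr2j-ps), and the small value of Sprr2g turned negative in several alternatives. Sprr1a, a related envelope precursor, had an interaction of 2.14 (limma adjusted p = 0.321). The epidermis score, the mean deviation of 7 of 12 epidermal marker genes from the average animal, ran from -0.532 to 0.169 in the E+P glands and from -0.144 to 0.399 in the V glands, with no tested marker at the floor throughout a group.

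Gm15867 is a predicted gene, measured by 168534_i_at. Its V glands gave 138.4, 35, 103.9 and 128.5. The E glands gave 23.1, 19.8, 16 and 75.8, and the P glands 21.5, 19.3, 10.8 and 70.7. The E+P glands gave 204.4, 161.3, 165.7, 181.1 and 278.3, above every gland of V, E and P. One gland in each of V, E and P stood off from the rest of its group, at 35, 75.8 and 70.7, and with them V overlapped E and P. Gm15867 differed from V by -1.64 with E, by -1.69 with P and by 1.11 with both on the log2 scale, an interaction of 4.44 (SE 0.736), or 235.4 intensity units (SE 37.2). An additive response would put E+P at a log2 value of 3.16, under the floor of 4.31, and at -37.2 on the linear scale. Neither level can be measured, so part of the departure was bound to appear. Every E+P gland was above all V, E and P glands for 2 of the 10 tested member probe sets, Sprr2b and Gm15867, and for 0.269% of all 23067 tested probe sets. The choice of members used this pattern.

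Slc30a2 encodes ZnT2, a transporter that moves zinc into vesicles and is known for loading zinc into milk. Probe set 133053_at gave 148.1, 67, 57.7 and 66.3 in V, and 61.6, 73.7, 54, 17.2 and 72.4 in E+P. All 4 E glands, at 11.6, 16.3, 11.1 and 6.5, and 3 of the 4 P glands, at 9.5, 20.3, 18.6 and 15.8, were at the floor. V and E+P overlapped, and apart from E+P animal 4, at 17.2, every gland of these groups was above every E and P gland. The V mean was at least 3.96-fold the E mean and the E+P mean at least 2.59-fold. The sum of the single changes was -3.97 on the log2 scale, against -0.62 measured with both hormones. That sum would put E+P at a log2 value of 2.33, under the floor of 4.31, so a positive departure was bound to appear. The interaction was 3.35 (SE 0.589). With the floor at the 40th percentile it was 1.54 and with the floor at the 10th percentile 4.48, since the floor sets the E and P levels. The interaction on the linear scale, where no floor was used, was 113.1 intensity units (SE 23.8).

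Mast2 encodes a microtubule-associated serine/threonine kinase. Probe set 160938_at gave 92.6, 89.7, 117.5 and 87 in V, and 100.3, 91.9, 115.5, 106.1 and 82.5 in E+P. It gave 69.1, 51.4, 74.3 and 47.2 in E, and 50.5, 51.3, 34.4 and 73.9 in P. All 8 single-hormone glands were below all 9 glands of V and E+P, a pattern that 1 of the 10 tested member probe sets and 0.039% of all tested probe sets showed. The choice of members rested on these same values, so the shares are no test. The log2 differences from V were -0.69 with E, -0.92 with P and 0.04 with both, and the interaction was 1.65 (SE 0.297). The last of these 3 differences turned negative under median scaling, at -0.09. The second probe set of Mast2, 134878_at, gave 41.5 to 89.8 in V, 13.8 to 89.7 in E, 6.3 to 91.4 in P and 23.6 to 192.8 in E+P. Its 4 groups overlapped, with an interaction of 0.94 (SE 0.834), so the separation seen with the first probe set was not seen with the second.

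Kcnk12 and 6430571L13Rik moved the other way, up with each hormone and back with both. Kcnk12 encodes THIK-2, a two-pore domain potassium channel subunit. Probe set 134817_at gave 230.1, 82.4, 131.8 and 515.5 in E and 481.7, 518.8, 290.4 and 145.1 in P. It gave 65.8, 74.1, 117.5 and 58.3 in V and 55.3, 32.6, 52.8, 31.7 and 125.7 in E+P. All P glands were above all V and E+P glands, whereas E overlapped both. The log2 differences from V were 1.32 with E, 2.08 with P and -0.55 with both, and the interaction was -3.94 (SE 0.724), or -460.4 intensity units (SE 132). The second probe set, 166483_at, was too dim to test, at 9.5 to 25.5 in E+P and 8.6 to 85.5 in P.

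6430571L13Rik, a RIKEN cDNA gene, gave 359.7, 355.7, 271.3 and 439.2 in E and 368.3, 267.8, 342.1 and 278.6 in P with probe set 140893_at. It gave 213.8, 103.5, 198.4 and 150.4 in V and 187.1, 79.7, 152.6, 139 and 39.4 in E+P. All single-hormone glands were above all V and E+P glands, as for 0.0347% of all tested probe sets. This share is no test either, since the same values chose the gene. The log2 differences from V were 1.13 with E, 0.96 with P and -0.62 with both, an interaction of -2.71 (SE 0.5), or -384.6 intensity units (SE 55.6). A second tested probe set, 136348_at, had an interaction of -0.18 (SE 0.653) and its groups overlapped, while 108945_g_at was at or near the floor in every animal.

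**Figure D2:**
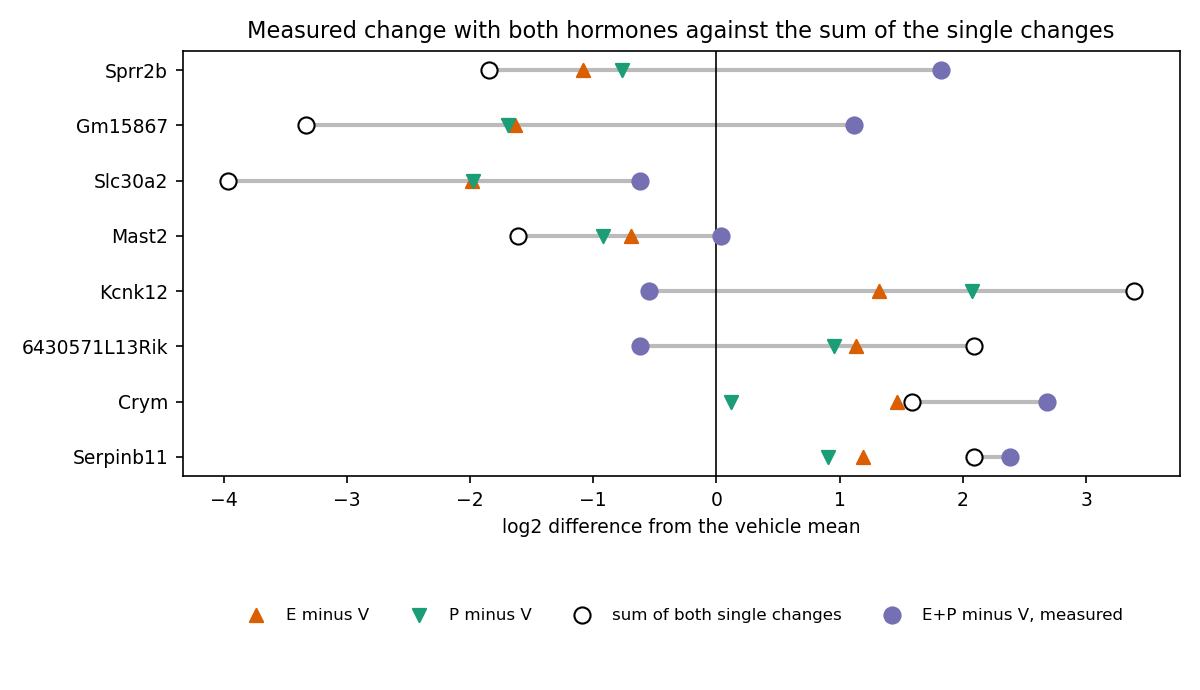
Log2 difference from the vehicle mean for the main probe set of each gene with E, with P, as the sum of both (open circle) and as measured with E+P (filled circle), the grey line being the interaction. Open and filled circles lie farthest apart for Gm15867, at -3.33 and 1.11, and closest for Serpinb11, at 2.09 and 2.39. Levels at the floor shorten differences for Slc30a2, Gm15867, Crym and Serpinb11. The open circles of Slc30a2 and Gm15867 stand for E+P levels under the floor, which could not be measured.

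Crym and Serpinb11 rose with both hormones without the reversal seen in the remaining 6 genes. Crym encodes mu-crystallin, a cytosolic protein that binds thyroid hormone. Probe set 160937_at was at the floor in all 4 V glands, at 6.1, 5.3, 1 and 8.7, and gave 19, 12.4, 5.9 and 5.9 in P. It gave 44.8, 4.8, 52 and 62.3 in E and 147.7, 56.4, 101.1, 109.1 and 54.9 in E+P. In E, 3 of 4 glands were well above every V and P gland, so the signal was not restricted to the combined treatment. The E+P mean was at least 6.41-fold the V mean and the E mean at least 2.76-fold. The interaction was 1.10 (SE 0.64) on the log2 scale and 0.61 without E animal 2, which was at the floor. On the linear scale it was 47.3 intensity units (SE 21.8). The second probe set of Crym, 166000_at, was too dim to test, with medians of 24.5 in V, 24.9 in E, 30 in P, 26.1 in E+P and 21.8 in E+P CFP. All its groups overlapped, so it did not show the pattern of the first.

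Serpinb11 belongs to the clade B serpins, intracellular relatives of protease inhibitors. Probe set 163128_at gave 14.2, 16.4, 10.8 and 33.7 in V, of which 3 were at the floor, and 34.9, 56, 126.1 and 86.4 in E. It gave 35.5, 78.5, 37.5 and 92.2 in P and 136.7, 355.6, 127.3, 90.7 and 163.4 in E+P. All hormone-treated glands were above all V glands, and E+P overlapped P and E at its lowest gland. The log2 differences from V were 1.19 with E, 0.90 with P and 2.39 with both, against a sum of 2.09. The interaction of 0.29 (SE 0.607) was smaller than its error. Its sign changed in 6 of 37 alternatives, with the floor at the 10th percentile (-0.51), an offset of 16 in place of the floor (-0.0897), the Gapdh ratio as covariate (-0.109), without V 4, E 1 and E+P CFP 1 together (-0.085), without E animal 1 (-0.03) and without E+P animal 2 (-0.003). The log2 values of Serpinb11 thus go against the label of a departure from the sum. On the linear scale its interaction was 56.7 intensity units (SE 53).

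Over all 23067 tested probe sets, 17 (0.0737%) had an interaction with a limma adjusted p of 0.05 or less. Of all tested probe sets 0.0347% were higher and 0.039% lower. The choice of members rested on this contrast, so no count of members is set beside it. Array type C holds 4 of the 8 main probe sets, those of Gm15867, Slc30a2, Kcnk12 and 6430571L13Rik. Medians of the type C arrays ran from 48.4 to 63.7 in E and from 59.2 to 67.8 in the other groups. Under median scaling the interactions of Sprr2b, Gm15867, Slc30a2 and Mast2 stayed above 0 and those of Kcnk12 and 6430571L13Rik below it.

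Markers of immune cells, markers of luminal epithelium and a control for RNA quality also departed from the sum of both hormones. The lymphocyte and plasma cell score, over 15 of 19 markers, ran from -1.46 to 1.37 in V, from 0.418 to 1.92 in E, from -1.38 to 1.02 in P and from -1.56 to 0.777 in E+P. No tested marker was at the floor in every animal of a group, and the score's own interaction was -2.4. The luminal epithelium score averaged 0.418 in V, 0.515 in E, 0.164 in P and 0.953 in E+P, an interaction of 0.693. The interactions of the remaining scores ran from -0.373 (milk) to 0.276 (skeletal muscle). The log2 signal of the Gapdh control probe set at the 3' end of the transcript, less that at its 5' end, on type A averaged 1.29 in V, 0.56 in E, 0.995 in P and 1.12 in E+P, an interaction of 0.85. Beyond the covariate fits that follow, which leave out the luminal score, the part of these measures in the members' patterns was not tested. With the lymphocyte score as a covariate the interactions were 4.17 for Sprr2b, 4.14 for Gm15867, 3.04 for Slc30a2, 1.33 for Mast2, -4.39 for Kcnk12 and -2.66 for 6430571L13Rik. With the Gapdh ratio as a covariate they were 3.30, 4.06, 3.24, 1.76, -4.08 and -2.56 in the same order of genes. V animal 4, with a lymphocyte score of 1.37 against -1.41 at most in the other V glands, stood apart, as did E animal 1, with a skeletal muscle score of 2.01, and E+P CFP animal 1, with a Gapdh ratio of 4.39. Without these 3 animals the interactions were 3.62 for Sprr2b, 4.17 for Gm15867, 3.44 for Slc30a2, 1.77 for Mast2, -3.72 for Kcnk12 and -2.67 for 6430571L13Rik. In whole glands fewer cells of a type and less RNA per cell cannot be told apart.

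The fat pads address which of these signals are seen where no epithelium is present. Sprr2b, Gm15867 and Serpinb11 were lower in hormone-treated fat pads than in hormone-treated glands, and 6430571L13Rik was higher with 140893_at. Slc30a2, Mast2 and Kcnk12 did not pass the test. For Crym and for 6430571L13Rik with 136348_at the brightness filter was met only through the brighter of the groups compared, so their difference was bound to appear and is described without a test. Of the other 8 member probe sets 3 were higher in E+P than in E+P CFP and 1 lower, beside 5.24% higher and 2.66% lower of all tested probe sets. Under median scaling the 1823 calls over all probe sets became 830 higher and 1208 lower, from 1209 and 614. The E+P arrays entered the choice of members and the fat pad arrays did not. Choosing genes for a high or low E+P signal favours a difference from the fat pads in that same direction. The adjusted p and the counts of members in this comparison carry that bias.

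The fat pads gave 34.1, 20.2 and 76.8 for Sprr2b, all below the lowest E+P gland, and the log2 difference of E+P minus E+P CFP was 2.43 (SE 0.507, limma adjusted p = 0.00382). Gm15867 was at the floor in all 3, at 14.9, 2.5 and 5.7, and the glands were at least 9.80-fold higher (adjusted p = 3e-04). Crym was also at the floor, at 1.2, 5.6 and 2.2, with a ratio of at least 6.41-fold for the glands. These 3 genes showed no overlap between glands and fat pads. Serpinb11 gave 38.7, 23.5 and 59.9, a log2 difference of 1.94 (SE 0.455, adjusted p = 0.00801) without overlap, and the adjusted p was 0.0552 without E+P CFP animal 2. Glands and fat pads did not overlap for 14.8% of all tested probe sets.

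6430571L13Rik gave 304.9, 232 and 279.3 in the fat pads with 140893_at, above all E+P glands and near the single-hormone glands. The log2 difference of E+P minus E+P CFP was -1.37 (SE 0.375, limma adjusted p = 0.0231). The adjusted p was 0.136 without E+P CFP 1, V 4 and E 1 together, 0.109 without E+P CFP animal 1, 0.0706 without E+P CFP animal 3 and 0.0554 without E+P animal 2. With only the groups compared it was 0.107, and with no brightness filter 0.0514. The second probe set, 136348_at, gave 131.5, 84.6 and 158.7 in the fat pads and at most 59.8 in any gland. It passed the filter only through the fat pads, so this gives no support to the first probe set.

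Kcnk12 gave 48.6, 47.4 and 50.9 in the fat pads, inside the range of the E+P glands, with a log2 difference of 0.09 (SE 0.542, limma adjusted p = 0.956) whose sign changed without E+P animal 5, at -0.23. Mast2 gave 94.3, 104.8 and 85 with 160938_at, also inside that range, with 0.06 (SE 0.222, adjusted p = 0.918), and -0.16 under median scaling. The Mast2 fat pads also lay above every E and P gland, and the Kcnk12 fat pads below every V, E and P gland. Slc30a2 gave 15.4, 25.8 and 27.7, below all E+P glands but animal 4. Its difference of 1.08 (SE 0.442) had an adjusted p of 0.153, and 0.0314 without E+P animal 4.

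Treated fat pads differ from vehicle glands in both hormones and epithelium. No group held vehicle-treated fat pads, so hormones and epithelium cannot be told apart in this comparison. Against vehicle glands, whose arrays also entered the choice of members, the filter for Slc30a2 and for 136348_at was met only through the brighter group. Of the other 8 member probe sets 1 was lower in the fat pads and 0 higher, beside 2.41% lower and 0.685% higher of all tested probe sets. Under median scaling the 713 calls over all probe sets, 158 higher and 555 lower, became 203 and 423. The lower one was Gm15867, by at least 4.53-fold (limma adjusted p = 0.0359). The call was lost without V animal 1, 3 or 4, at adjusted p of 0.111, 0.0785 and 0.101, and without E+P CFP animal 1, 2 or 3, at 0.116, 0.0998 and 0.0903. It was also lost with the floor at the 40th percentile (0.143), only the groups compared (0.102), no brightness filter (0.0624) and array weights (0.0514). The same held with the lymphocyte score (0.0854) or the muscle score (0.593) as covariate, and without V 4, E 1 and E+P CFP 1 together (0.247). For Slc30a2 the log2 difference of E+P CFP minus V was -1.70 (SE 0.462), and for 6430571L13Rik it was 2.32 with 136348_at (SE 0.512), both without a test. With 140893_at 6430571L13Rik differed by 0.75 (adjusted p = 0.403). Sprr2b, Kcnk12 and Serpinb11 differed by -0.61, -0.64 and 0.44, with adjusted p of 0.688, 0.695 and 0.761. Mast2 differed by -0.02 with 160938_at and 0.21 with 134878_at (0.981 and 0.938). Crym with 160937_at was at the floor in both groups.

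**Figure D3:**
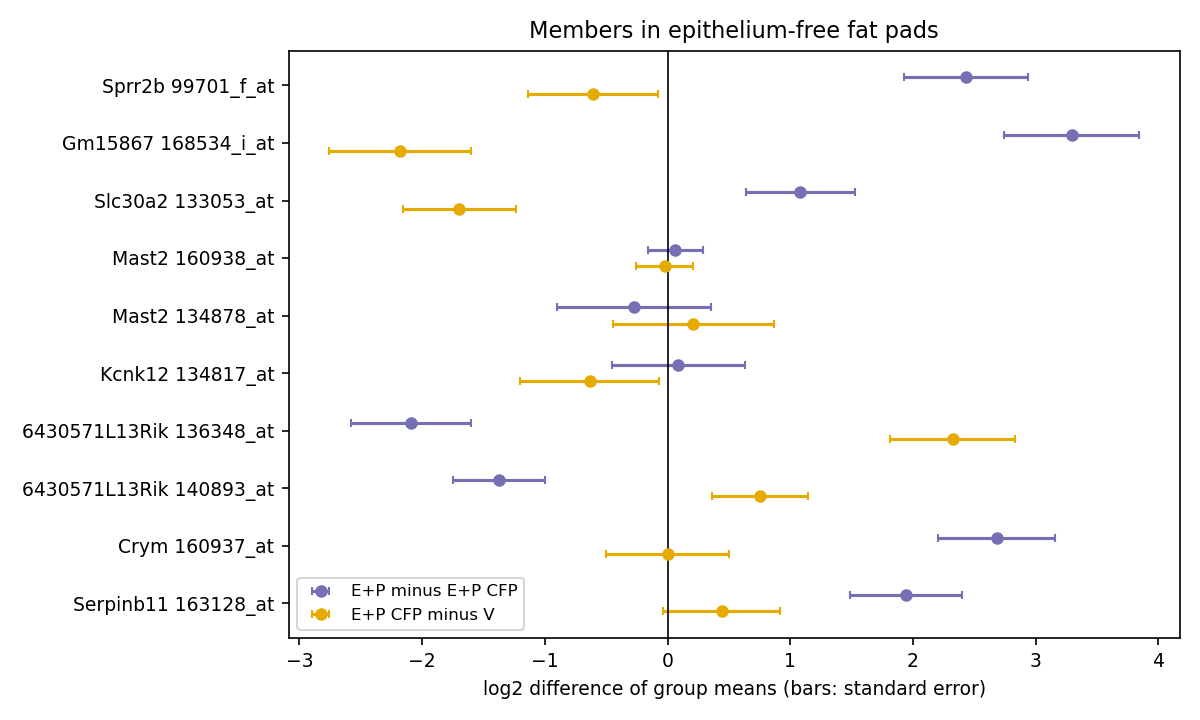
Log2 difference of group means with its standard error for the 10 tested member probe sets, E+P (n = 5) minus E+P CFP (n = 3) and E+P CFP minus V (n = 4). E+P CFP and V differ in both hormones and epithelium. Sprr2b, Gm15867, Crym and Serpinb11 lie to the right for E+P minus E+P CFP, at 1.94 to 3.29, and both probe sets of 6430571L13Rik lie to the left, where groups at the floor make the Gm15867 and Crym differences lower bounds.

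The luminal score over 18 of 18 markers ran from -3.08 to -3.02 in the fat pads and from 0.67 to 1.13 in E+P glands (two-sided exact permutation test, p = 0.0179, the smallest that 5 against 3 allows, adjusted 0.0286 over 8 lists). In all 3 fat pads 7 luminal markers were at the floor, namely Krt8, Krt19, Krt7, Epcam, Cldn7, Elf5 and Foxa1. The skeletal muscle score over 12 of 14 markers was 2.09 to 2.74 in the fat pads and -0.919 to 0.104 in the E+P glands. The basal score (6 of 12 markers) was 1.34 higher in the E+P glands and the milk score 2.05 higher, each with an adjusted p of 0.0286 by the exact permutation test, as for muscle. The adipocyte score differed by -0.56 (exact permutation test, adjusted p = 0.0286, and 0.0714 under quantile normalization) and the endothelium score by -0.35 (0.0476), both higher in the fat pads. Sprr2b, Gm15867 and Serpinb11 differed in the direction of the luminal, basal and milk scores, and 6430571L13Rik in that of the adipocyte, muscle and endothelium scores; the part of these cell types was not tested. The epidermis and lymphocyte scores differed by 0.14 and -1.05 (0.554 and 0.245). With the muscle score as a covariate none of the members' differences between glands and fat pads passed, and those of Sprr2b, Gm15867, Serpinb11 and 6430571L13Rik kept their direction, with Sprr2b at 2.23 (limma adjusted p = 0.341). The part of muscle in these results was not tested beyond this fit, since muscle and group cannot be told apart. The 3' to 5' Gapdh difference on type A spread from a ratio of 1.26 to 4.39 in the fat pads and from 1.49 to 2.76 in the E+P glands, and with it as a covariate these 4 genes stayed past the threshold.

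**Figure D4:**
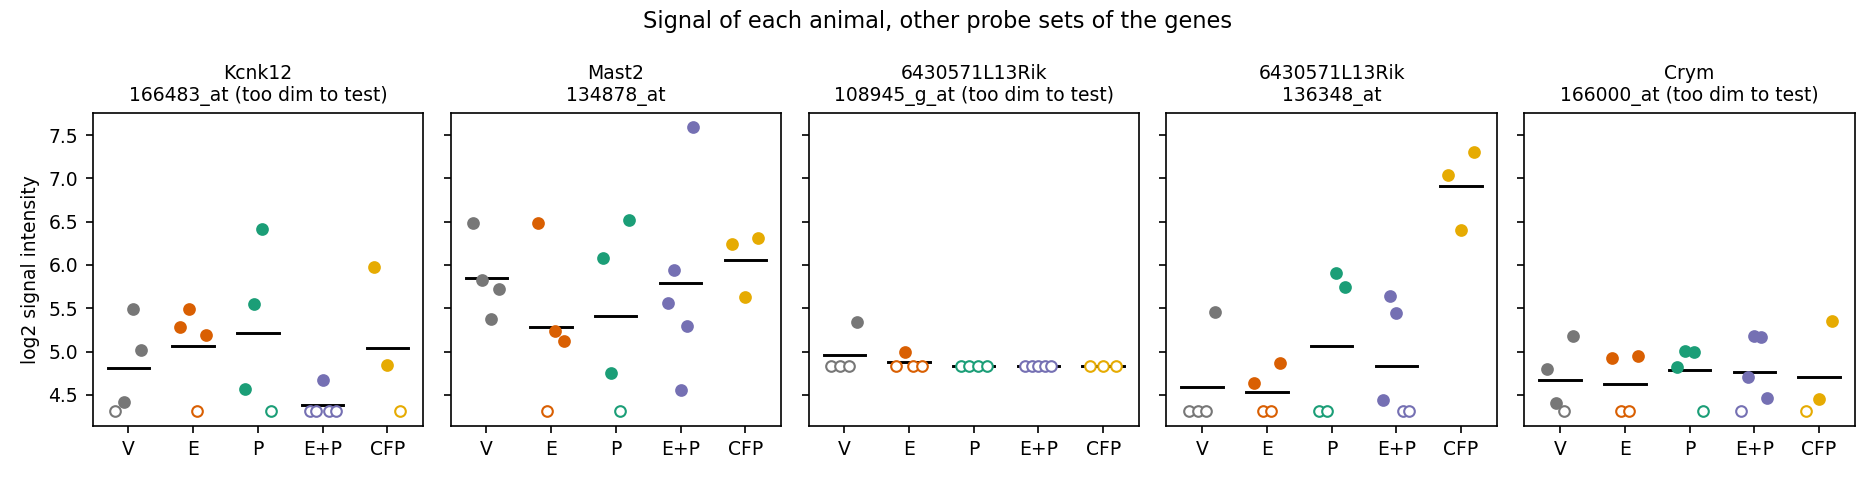
Log2 signal intensity of the 5 other probe sets of the same genes, 1 point per animal, with bars at group means and open points at the floor. 136348_at is highest in the 3 fat pads, and 3 of the 5 probe sets were too dim to test.

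The genes whose signal followed each member most closely over the 20 animals give its pattern in other terms. The values are Pearson correlations with no test, and all genes share the same animals and groups. Serpinb11 was followed by Stmn1 (0.924), Kif22 (0.875) and Pbk (0.869), which act on microtubules or in mitosis. Crym was followed by Igfbp2 (0.856), a binding protein of insulin-like growth factors, and Emid1 and Rnf182 (0.83 each). Gm15867 was followed by Tjp3 (0.898), a tight junction protein, Plekhb1 (0.845) and Mfap4 (0.817), and Sprr2b by Pald1 (0.843), Nfib (0.831), a transcription factor, and Pard6b (0.816), a cell polarity protein.

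For Slc30a2 the closest genes were S1pr1 (0.825), a sphingosine-1-phosphate receptor, Ahcyl1 (0.811) and Psg18 (0.755). For Mast2 they were Cluh (0.860), Ralyl (0.823) and Tbx20 (0.813). For Kcnk12 they were Gpx1 (0.840), a glutathione peroxidase, Crebrf (0.839) and Tead4 (0.793). For 6430571L13Rik they were BC049762 (0.871), Fam13a (0.842) and Sult1a1 (0.765), a sulfotransferase. None of these 24 genes passed for the interaction (limma adjusted p above 0.05). All had an interaction with the sign of their member's, from -2.05 for BC049762 (adjusted p = 0.0576) to 2.65 for Mfap4 (0.134). They were picked for following the members in these arrays, so neither the shared sign nor the adjusted p is a fair test.

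Relatives of the members were looked at for the same departure from the sum. None of the 20 tested genes of cornified envelope and epidermal differentiation, 9 clade B serpins, 23 zinc transporters and metallothioneins, 9 two-pore potassium channels, 2 MAST kinases and 10 genes of thyroid hormone handling passed for it, or for E, P or E+P against V, where 0.182%, 0 and 0.464% of all tested probe sets passed. For P against V 1861 probe sets had an unadjusted p under 0.05. The median interactions of these lists were 0.06, 0.08, -0.07, -0.01, -0.40 and 0.11, beside 0.01 over all tested probe sets. Of the other MAST kinases, Mast3 had an interaction of -0.94 and Mast4 of 0.13. Kcnk6, among the potassium channels, had -1.38, up with each hormone and back with both. Each gene entered its list with 1 probe set, so other probe sets of these genes are not covered. Another probe set of Serpinb3a had an interaction of 2.90, described without a test, beside 0.37 with the one that entered.

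Several relatives differed between glands and fat pads. Of the envelope list 3 were higher in E+P than in E+P CFP, Sprr1a by 2.43 (limma adjusted p = 0.0175), Cdsn, which encodes corneodesmosin, by 1.23 (0.000697), and Ppl, periplakin, by 0.90 (7.2e-05). The mean log2 signal of Sprr1a was 6.45 in E+P and 4.02 to 4.48 in the other groups. It may have met the brightness filter only through E+P glands, which was not checked, and its difference would then be bound to appear. Every adjusted p of Sprr1a in this comparison carries that limit. Serpinb5, maspin, was higher by at least 4.35 (1.08e-09), its fat pads being at the floor with 165730_at, whereas its probe set 170241_f_at differed by -0.08 (0.961). Kcnk1 was higher by 2.08 (1.6e-07) while Kcnk2 was lower by -1.08 (0.00709). In the zinc list Slc39a4, an importer, was higher by 0.69 (0.0226) and Mt2, a metallothionein, by 1.34 (0.0229). Thrsp, a thyroid hormone responsive gene of fat synthesis, was lower by -0.63 (0.0105). Without E+P CFP animal 1 the adjusted p was 0.0594 for Sprr1a, 0.105 for Mt2, 0.0533 for Kcnk2 and 0.0633 for Thrsp. Without animal 2 it was 0.0532 for Mt2 and 0.0882 for Slc39a4, and without animal 3 it was 0.0626 for Sprr1a, 0.0616 for Mt2 and 0.087 for Slc39a4. Without E+P animal 5 it was 0.0564 for Slc39a4. Under median scaling it was 0.154 for Slc39a4 and 0.0594 for Mt2, and under quantile normalization 0.0524 for Sprr1a and 0.107 for Thrsp. With the replicate number as a block it was 0.0557 for Sprr1a, 0.0992 for Slc39a4 and 0.0647 for Mt2.

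Among 13 tested estrogen and progesterone target genes, Zbtb16, a steroid-induced zinc finger factor, had the one interaction that passed, -3.66 (SE 0.504, limma adjusted p = 0.00994). The adjusted p ran up to 0.0403 over the alternatives. Its log2 difference from V was 2.06 with E, and its difference from E to E+P was -1.79. Its direction was that of Kcnk12 and 6430571L13Rik. Fkbp5, a chaperone gene induced by progesterone and glucocorticoids, rose by 1.98 with E (0.00743), with an interaction of -2.14 (0.0576). The estrogen receptor gene Esr1 and Wnt4, a progesterone target, had interactions of 0.41 and -0.56 (0.61 and 0.564). In glands 6 targets were higher than in fat pads, among them Elf5 by at least 3.82 (1.04e-10), Myb by 2.64 (1.65e-06) and Cited1 by 2.16 (5.35e-06).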

How the data were processed

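Total RNA of 20 mice was labelled with biotin and hybridised to Affymetrix MG-U74 arrays of types A, B and C, 60 in all. The deposited values are signal intensities on a linear scale, which the submitters' processing notes credit to MAS5. The MAS5 version is not given in the sources used here. Arrays of one group and replicate number were taken as 1 animal, which bears on the correlations and scores.

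Each array was rescaled to a common 2% trimmed mean (150.03 to 150.1 as deposited). Intensities below the 25th percentile of the array type were set to it, and log2 was taken. A probe set was tested if above the 50th percentile (61.6, 85.7 and 61.8) in 3 animals, which left 23067 probe sets. limma 3.58.1 in R 4.3.3 fitted one mean per group with an intensity trend, and Benjamini-Hochberg adjustment covered all 23067. The fit was tested on simulated data. The number of arrays limits the precision.

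The members and gene lists were chosen with earlier results of these data known. All 13 probe sets of the members are given. A gene's main probe set was taken by array type (A, B, C), then by a plain name with no suffix, then by brightness. The 3 genes of highest correlation with each member were named, and of each list up to 3 passing genes per comparison, or up to 2 with the smallest p where none passed, with Esr1, Pgr, Areg, Wnt4, Tnfsf11, Krt8 and Krt18. Of the latter, Pgr, Areg and Tnfsf11 were too dim to test. Alternatives covered normalization, floor, filter, variance model, animals left out and the replicate number as a block. After the data were seen, the lymphocyte score, the skeletal muscle score and the Gapdh ratio were added as covariates.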

Additional observations from a re-analysis of the deposited data

Results flagged for a closer look

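Single animals stood far from the rest of their group in 8 of the 38 groups of member probe sets that could be checked, where chance gives about 1 in 20 and values tied at the floor make the measure more sensitive. For Gm15867 these were E animal 4, at 75.8, and P animal 4, at 70.7. For Slc30a2 they were V animal 1, at 148.1, P animal 2, at 20.3, just above a floor that holds the other P animals, and E+P animal 4, at 17.2. The V animal 4 was high for 6430571L13Rik with 136348_at, at 43.8, and for Serpinb11, at 33.7. For Crym, P animal 1, at 19, was the one P gland above the floor.

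The effect of progesterone on Zbtb16 differed between glands with and without estrogen, with an interaction of -3.66 on the log2 scale (limma adjusted p = 0.00994).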

How the results depend on the processing

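The directions of the interactions of Sprr2b, Gm15867, Slc30a2, Mast2 (160938_at), Kcnk12, 6430571L13Rik (140893_at) and Crym held in all alternatives run. For Gm15867 and Slc30a2 the floor of the main setting left room for a positive departure only. The 17 probe sets with an interaction became 28 under median scaling, 36 with array weights, 11 with a replicate block, 8 with the lymphocyte score and 4 with the Gapdh ratio as covariate, and ranged from 10 (without V 2) to 48 (without V 4) when each animal was left out, with 27 without E 1 and 45 without P 4. The 1823 calls between E+P and E+P CFP became 1055 without V 4, E 1 and E+P CFP 1 together and 273 with the skeletal muscle score, and ranged from 1091 (without E+P CFP 1) to 1992. The 713 calls between E+P CFP and V became 419 with only the groups compared, 356 without those 3 animals and 220 with the muscle score, and ranged from 466 (without E+P CFP 1) to 777. The causes were not tested.

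Same-numbered animals did not deviate together on average (mean correlations of 0.0195, 0.0129 and -0.00364 on types A, B and C over 36 pairs). Single pairs ran from -0.334 to 0.224 on type A. The numbers were taken as names of animals, and a batch shared by some of them was not tested beyond the block. With the replicate block the counts between E+P and E+P CFP and between E+P CFP and V were 1377 and 654, and the Gm15867 call in E+P CFP against V was lost (adjusted p = 0.054), as were those of Sprr1a, Slc39a4 and Mt2 between E+P and E+P CFP (0.0557, 0.0992 and 0.0647).

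Small differences changed sign. Kcnk12 between E+P and E+P CFP became -0.192 with the block and -0.107 with the lymphocyte score, and ran from -0.232 to 0.265 over the animals left out. Mast2 with 160938_at became -0.0995 under quantile normalization, -0.164 under median scaling and -0.0788 with the lymphocyte score, and ran from -0.0117 to 0.139. Its difference between E+P CFP and V became 0.0771, 0.0721 and 0.141 in these settings and 0.00515 with array weights, and ran from -0.101 to 0.0723. Mast2 with 134878_at became 1.03 and -0.908 with the muscle score in these comparisons, and ran from -0.724 to 0.0334 in the first. With the lymphocyte score Mast3 from E to E+P became 0.0884 and the Sprr2j-ps interaction 0.333. The Sprr2g interaction became -0.0818 with array weights, -0.0504 with the block, -0.0471 with the lymphocyte score and -0.0349 with the Gapdh ratio, and ran from -0.0637 to 0.138.

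Slc30a2 was not tested with the filter at the 60th percentile, and dim signals limit what these arrays resolve.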
